A study of Homo sapiens with 18 samples.

Results

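The pharyngeal PAX, SIX-family, EYA and DACH genes described here were 8 of the 35025 genes in a deposited count table, chosen by symbol: PAX1, PAX9, SIX2, SIX4, EYA1, EYA2, EYA4 and DACH1. They were followed in foregut endoderm made from H1 cells, a human embryonic stem cell line, in 6 groups of 3 bulk RNA-seq libraries. All-trans retinoic acid (RA) was added at 2 µM over the 24 h before day 6, and CHIR99021, a GSK3 inhibitor that activates WNT signalling, was given at 2 µM together with BMP4 at 50 ng/mL for the 72 h from day 6 to day 9. The day 9 groups were RA then CHIR99021 and BMP4 (written RA then CHIR+BMP4), CHIR99021 and BMP4 without RA (CHIR+BMP4), RA without CHIR99021 or BMP4 (RA day 9), and untreated day 9. The day 6 groups were RA day 6 and untreated day 6. All groups were wild type and came from a single cell line. The labels say that CHIR99021 and BMP4 stood in for the signals that induce a respiratory fate. The labels do not state whether the 3 libraries of a group came from separate cultures, and the p-values may therefore rest on technical spread alone.

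PAX1 and PAX9 are paired-box transcription factors of the pharyngeal pouches, the outpocketings of the foregut that give rise to the thymus and parathyroid glands. SIX-family proteins are homeodomain transcription factors that bind DNA with EYA proteins, which act as coactivators and carry a phosphatase activity. DACH1 is a nuclear cofactor that can turn SIX-family target genes off. Together they form a network used in pharyngeal pouches, cranial placodes, ear and kidney. Retinoic acid is a posteriorising signal for the foregut endoderm, and WNT and BMP signals from the mesoderm act on the ventral foregut where the lung begins.

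Library totals ran from 5792337 to 25371661 counts. Levels are in CPM, counts relative to the library total, with library sizes scaled by the trimmed mean of M-values, and each gene was called at an adjusted p below 0.05 in edgeR's quasi-likelihood test over 15531 tested genes. All 8 members were in the table and 7 passed the low-count filter. EYA4 did not. All 8 genes of a foregut endoderm marker list, among them FOXA2 and SOX17, averaged over 1 CPM in each of the 6 groups, but at unlike levels. FOXA2 averaged 171 CPM after RA then CHIR+BMP4 and 18.9 CPM after CHIR+BMP4. Between these 2 groups, 7 of the 8 markers were called higher after RA then CHIR+BMP4, 0 lower and 1 was not called. In bulk libraries, fewer cells of a type and less RNA per cell cannot be told apart.

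The untreated and the treated libraries differed in a second way. 64 features, 60 of them pseudogenes and none of them a member, separated the 12 treated libraries from untreated day 9 and untreated day 6 replicate 2. The gap was 10-fold or more, with 33 higher in treated and 31 higher in untreated libraries. Untreated day 6 replicates 1 and 3 were not used to choose these features. Of the reads on the pseudogenes among them, the kind that was higher in treated libraries made up 93.9% to 95.5% in the 12 treated libraries. It made up 0.352% to 0.607% in the untreated day 9 libraries, and 9.19%, 0.392% and 18.2% in untreated day 6 replicates 1, 2 and 3. In the libraries used for the choice, a wide gap in this share follows from the choice itself. RA then CHIR+BMP4 against CHIR+BMP4, RA then CHIR+BMP4 against RA day 9, and RA day 9 against RA day 6 compare libraries of 1 kind. Untreated day 9 against untreated day 6 compares libraries of the untreated kind, with the shares just given. The comparisons of treated with untreated libraries cross the kinds, and at day 9 treatment and read kind cannot be told apart. A fit with the read kind as a covariate draws on the untreated day 6 libraries, the only group whose shares differ widely among its libraries. It extends that difference to the treated libraries, so at day 9 a call kept or lost there does not separate treatment from read kind. Values of that fit for the members are given where they end a call. That fit called fewer of all tested genes, 12.15% for RA at day 6 and 11.98% for RA at day 9. It called 2.12% for CHIR+BMP4 against untreated day 9 and 7.32% for RA then CHIR+BMP4 against untreated day 9.

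RefSeq promoter entries (GRCh38.p14) were held for 5 of the 8 members. PAX1, EYA1 and EYA2 are named only. PAX9 and SIX2 are printed as the members with an entry that fell furthest after RA at day 6, DACH1 as the member that rose in every treated group, and EYA4 as the member that was nearly silent. Each runs from 250 bases before the start site to 30 after it, and capitals mark motif matches.
PAX9, chr14:36657318-36657597, plus strand: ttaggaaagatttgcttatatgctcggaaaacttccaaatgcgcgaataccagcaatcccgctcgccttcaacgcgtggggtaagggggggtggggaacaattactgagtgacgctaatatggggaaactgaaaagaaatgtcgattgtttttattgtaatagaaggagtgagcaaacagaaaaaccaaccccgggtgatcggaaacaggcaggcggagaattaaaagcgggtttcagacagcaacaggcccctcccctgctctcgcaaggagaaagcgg
SIX2, chr2:45009423-45009702, minus strand: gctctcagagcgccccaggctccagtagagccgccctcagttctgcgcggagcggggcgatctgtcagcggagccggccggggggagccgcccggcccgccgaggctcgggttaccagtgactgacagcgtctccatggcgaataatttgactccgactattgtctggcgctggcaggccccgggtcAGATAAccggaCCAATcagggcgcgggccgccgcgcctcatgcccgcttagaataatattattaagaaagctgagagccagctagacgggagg
DACH1, chr13:71867175-71867454, minus strand: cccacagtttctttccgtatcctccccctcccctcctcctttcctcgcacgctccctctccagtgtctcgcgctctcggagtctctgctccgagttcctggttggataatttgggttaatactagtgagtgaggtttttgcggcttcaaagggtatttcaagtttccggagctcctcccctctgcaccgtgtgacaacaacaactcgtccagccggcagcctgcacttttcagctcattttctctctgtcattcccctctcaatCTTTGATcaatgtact
EYA4, chr6:133241107-133241386, plus strand: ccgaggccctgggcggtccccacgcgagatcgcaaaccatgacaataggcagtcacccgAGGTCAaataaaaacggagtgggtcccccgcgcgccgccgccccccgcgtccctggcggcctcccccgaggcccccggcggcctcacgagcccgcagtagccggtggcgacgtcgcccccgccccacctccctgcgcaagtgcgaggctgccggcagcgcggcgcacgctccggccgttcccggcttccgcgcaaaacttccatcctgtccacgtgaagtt
Windows of 250 bases before to 50 after the start were searched on both strands for 6 motifs, and the share of 35116 promoters of that length that hold each was counted. The retinoic acid receptor half-site was searched as AGGTCA (13.8% of promoters). The TCF and LEF motif was searched as CTTTGAT (2.62%). The forkhead motif was searched as TGTTTAC (3.42%). The motif of GATA-family factors was searched as AGATAA (10.3%). The MEF3 motif, bound by SIX-family proteins, was searched as TCAGGTT (3.37%). The CCAAT box was searched as those letters (34.6%). The upstream PAX9 start held none of them, and the other PAX9 start held CCAAT at position -86. SIX4, not printed, held CCAAT at position -39. SIX2 held AGATAA at position -63 and CCAAT at position -52, counted from the start site. DACH1 held CTTTGAT at position 15, inside the transcribed part. AGGTCA was found in EYA4, at position -191, and in none of the other 4 members with an entry. A match is a run of letters and not a binding site.

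PAX1 lies on chromosome 20 (21705659 to 21718486, GRCh38, plus strand) with no overlapping gene in the GENCODE annotation. It was counted at 6.50, 7.53 and 7.03 CPM after RA then CHIR+BMP4, 372, 329.9 and 384 CPM after CHIR+BMP4, 5.61, 2.30 and 1.56 CPM at RA day 9, 15.6, 18.04 and 11.9 CPM at untreated day 9, 0, 0.245 and 0.425 CPM at RA day 6, and 104, 150.4 and 98.7 CPM at untreated day 6. The order of the means was CHIR+BMP4, untreated day 6, untreated day 9, RA then CHIR+BMP4, RA day 9 and RA day 6, and no 2 neighbours in it overlapped. PAX1 covered the widest range of the 8 genes, with a mean of 362 ± 28.3 CPM after CHIR+BMP4 and 0.223 ± 0.213 CPM at RA day 6 (SD, n = 3 each), where it had 6 counts in all.

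PAX9 lies on chromosome 14 (36657568 to 36677806, plus strand). It was counted at 0.287, 0.502 and 0 CPM after RA then CHIR+BMP4, 2.10, 1.55 and 1.14 CPM after CHIR+BMP4, 8.18, 4.59 and 3.56 CPM at RA day 9, 2.49, 2.89 and 2.94 CPM at untreated day 9, 0.221, 0.245 and 0 CPM at RA day 6, and 14.1, 18.3 and 12.8 CPM at untreated day 6. The means ran in the order untreated day 6, RA day 9, untreated day 9, CHIR+BMP4, RA then CHIR+BMP4 and RA day 6, and the last 2 groups overlapped. Per transcript length, on the authors' TPM scale, PAX9 stayed below PAX1 in every library of RA then CHIR+BMP4, CHIR+BMP4, untreated day 9 and untreated day 6. PAX9 averaged 0.896 ± 0.232 TPM after CHIR+BMP4, where PAX1 averaged 216 ± 16.0 TPM (SD, n = 3 each). In each RA day 9 library PAX9 was the higher of the pair, at 3.26 ± 1.41 TPM against 1.99 ± 1.34 TPM for PAX1. In the GENCODE annotation PAX9 overlaps SLC25A21, a mitochondrial carrier gene, and an antisense gene, both on the other strand. EYA1, EYA2, EYA4 and DACH1 overlap 2, 2, 4 and 3 genes on the other strand, and SIX2 and SIX4 overlap 0. The strand setting of the authors' counting is not given in the sources used here. SLC25A21 stayed between 1.56 and 5.83 CPM over the 18 libraries.

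SIX2, a SIX-family gene known from pharyngeal arches and kidney, lies on chromosome 2 (45005182 to 45009452, minus strand). It was counted at 0.430, 0.301 and 0.413 CPM after RA then CHIR+BMP4, 3.98, 2.33 and 3.42 CPM after CHIR+BMP4, 6.74, 2.92 and 0.667 CPM at RA day 9, 4.22, 4.43 and 3.46 CPM at untreated day 9, 0.221, 0.0817 and 0 CPM at RA day 6, and 2.68, 2.71 and 2.58 CPM at untreated day 6. Untreated day 9, RA day 9 and CHIR+BMP4 overlapped at the top, and RA then CHIR+BMP4 and RA day 6 stood apart at the bottom. SIX4, a more widely expressed SIX-family gene on chromosome 14 (60709539 to 60724351, minus strand), varied least of the tested members. It averaged 52.7 ± 3.04 CPM after RA then CHIR+BMP4, 56.8 ± 3.68 CPM after CHIR+BMP4, 30.6 ± 2.98 CPM at RA day 9, 60.3 ± 6.17 CPM at untreated day 9, 42.8 ± 1.80 CPM at RA day 6 and 50.7 ± 4.30 CPM at untreated day 6 (SD, n = 3 each). The highest SIX4 mean was 1.97 times the lowest, and the 4 highest groups overlapped their neighbours.

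EYA1, mutated in branchio-oto-renal syndrome, lies on chromosome 8. It was counted at 10.2, 11.4 and 7.58 CPM after RA then CHIR+BMP4, 87.8, 66.6 and 76.9 CPM after CHIR+BMP4, 17.2, 11.1 and 5.22 CPM at RA day 9, 46.6, 59.9 and 60.8 CPM at untreated day 9, 24.9, 21.9 and 25.9 CPM at RA day 6, and 73.7, 79.9 and 76.3 CPM at untreated day 6. Every group without RA lay above every group with RA, with CHIR+BMP4 and untreated day 6 overlapping at the top and RA day 9 and RA then CHIR+BMP4 overlapping at the bottom. EYA2, on chromosome 20 (46894624 to 47188844, plus strand), was counted at 10.4, 8.24 and 10.8 CPM after RA then CHIR+BMP4, 61.9, 59.4 and 67.3 CPM after CHIR+BMP4, 36.1, 25.8 and 14.8 CPM at RA day 9, 36.6, 34.6 and 37.2 CPM at untreated day 9, 31.9, 39.8 and 27.6 CPM at RA day 6, and 35.9, 34.4 and 40.0 CPM at untreated day 6. CHIR+BMP4 stood alone at the top and RA then CHIR+BMP4 alone at the bottom, while the 4 groups between them overlapped their neighbours. EYA4, on chromosome 6 (133241357 to 133532120, plus strand), had 0 to 7 counts per library, and its highest group mean was 0.321 ± 0.322 CPM (SD, n = 3), at untreated day 6. EYA4 was not tested.

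DACH1, on chromosome 13 (71437966 to 71867192, minus strand), was counted at 80.1, 86.3 and 72.5 CPM after RA then CHIR+BMP4, 27.9, 26.6 and 24.7 CPM after CHIR+BMP4, 19.9, 25.0 and 25.7 CPM at RA day 9, 3.46, 9.02 and 7.26 CPM at untreated day 9, 15.01, 15.4 and 16.8 CPM at RA day 6, and 6.84, 8.75 and 6.76 CPM at untreated day 6. It was the only member whose highest group was RA then CHIR+BMP4. The 4 treated groups all lay above both untreated groups, CHIR+BMP4 overlapped RA day 9, and the untreated groups overlapped each other.

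**Figure D1:**
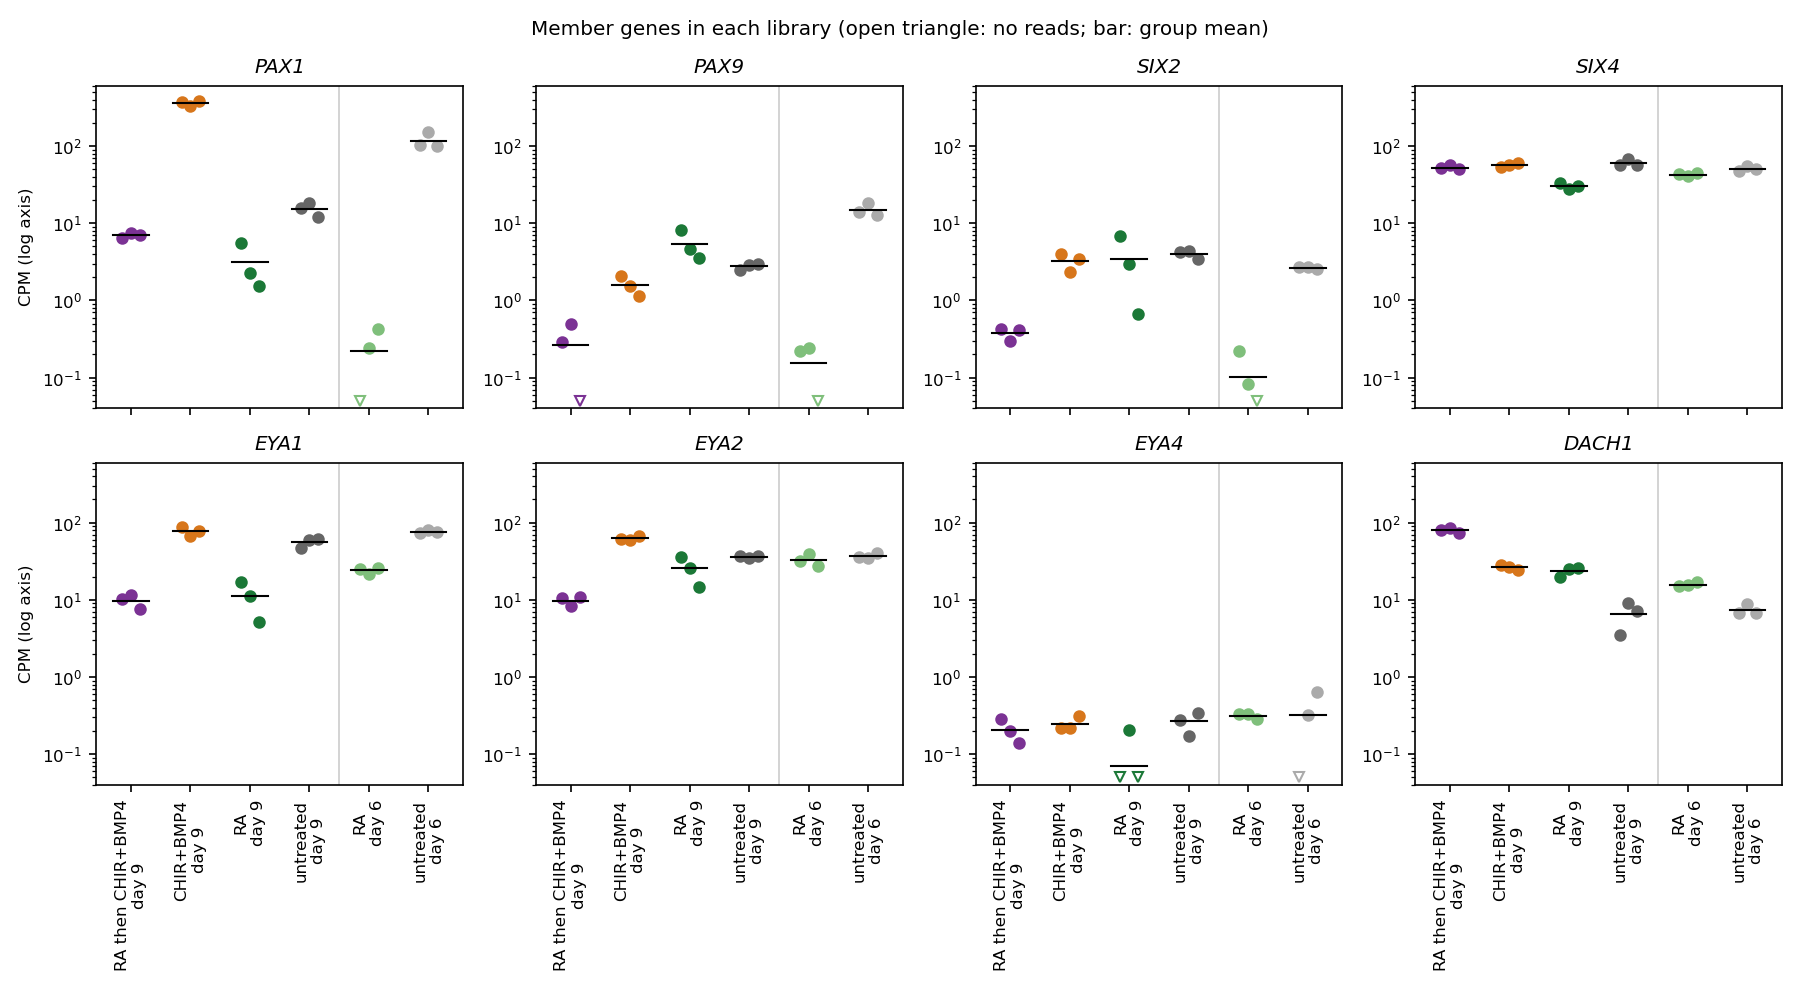
CPM (log axis) of the 8 genes in each of the 18 libraries, with 3 points and a mean bar per group and open triangles for libraries with no reads. PAX1 spans 0 to 384 CPM, SIX4 stays between 27.6 and 67.4 CPM, and DACH1 is highest after RA then CHIR+BMP4.

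RA before CHIR+BMP4 lowered 5 of the 7 tested genes and raised 1. This comparison asks what prior RA does to cells that then receive the respiratory-inducing signals, and both groups share 1 read kind. PAX1 averaged 7.02 ± 0.514 CPM after RA then CHIR+BMP4 and 362 ± 28.3 CPM after CHIR+BMP4 (SD, n = 3 each), and was 52.2-fold lower (log2 fold change -5.71, SE 0.23, adjusted p = 4.5e-11). EYA1 (log2 fold change -2.96, SE 0.24, adjusted p = 1.1e-07), EYA2 (-2.68, SE 0.22, adjusted p = 7.5e-08), SIX2 (-3.04, SE 0.56, adjusted p = 0.00017) and PAX9 (-2.40, SE 0.52, adjusted p = 0.00062) fell with it. DACH1 rose 3.03-fold (log2 fold change 1.60, SE 0.16, adjusted p = 1.8e-07). The libraries of the 2 groups did not overlap for any of these 6 genes. The share of all tested genes without such overlap is not given here. SIX4 did not pass the test (log2 fold change -0.11, SE 0.09, adjusted p = 0.32). Over all tested genes 43.3% were called in this comparison, 22.1% lower and 21.2% higher. The median log2 fold change was -2.68 for the 7 members and -0.01 for all genes.

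The same comparison was read in related genes. Of 17 listed pharyngeal endoderm genes 13 were tested, and 8 were lower and 2 higher. NKX2-5, a homeobox gene of pharynx and heart, averaged 0.150 ± 0.219 CPM after RA then CHIR+BMP4 and 44.1 ± 7.30 CPM after CHIR+BMP4 (SD, n = 3 each, adjusted p = 3.2e-08). NKX2-6, its close relative, averaged 0.286 ± 0.0913 CPM against 15.5 ± 3.001 CPM (adjusted p = 2.1e-05). Of 5 tested genes among the other SIX-family, EYA and DACH genes, 2 were lower and 2 higher. SIX3, a forebrain and eye regulator that lies 59.1 kb from SIX2, fell by 5.11 on the log2 scale (SE 0.34, adjusted p = 3.5e-11). DACH2, the paralog of DACH1, rose by 1.68 (SE 0.28, adjusted p = 5.5e-05). Of 3 tested genes among the other PAX genes, 1 was lower and 0 were higher in edgeR's test. The summed level of 8 cranial placode and otic markers was 15.8 to 17.7 CPM after RA then CHIR+BMP4 and 134 to 155 CPM after CHIR+BMP4. HMX3, an otic marker, averaged 0.0494 ± 0.0502 CPM against 39.7 ± 7.67 CPM and GATA3 10.1 ± 0.270 CPM against 92.6 ± 7.01 CPM (SD, n = 3 each), while FOXI1 had no reads in either group. HMX3 and GATA3 made up most of the CHIR+BMP4 sum. POU4F1, of the same list, averaged 6.00 ± 0.545 CPM against 4.60 ± 2.86 CPM (SD, n = 3 each). Of the 4 tested markers of this list, 3 were lower, 0 higher and 1 was not called. Of the 8 markers 2 had no reads after RA then CHIR+BMP4 and 1 had none after CHIR+BMP4. The part of such cells in the fall of PAX1, EYA1 and EYA2 was not tested.

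NKX2-1, the transcription factor that marks the early lung and thyroid field, is the nearest tested gene before PAX9, 138 kb away. It was chosen for that position after its values were seen. NKX2-1 was counted at 81.3, 86.7 and 69.7 CPM after RA then CHIR+BMP4 and 8.97, 13.6 and 9.38 CPM after CHIR+BMP4, and rose by 2.93 on the log2 scale (SE 0.14, adjusted p = 8.3e-14) where PAX9 fell. LINC01726, a noncoding gene 2.07 kb from PAX1 that was also singled out by position, had 1 count in the 3 RA then CHIR+BMP4 libraries and 76 counts in the 3 CHIR+BMP4 libraries. In each of the other 4 groups it had 0 to 10 counts over the 3 libraries.

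CHIR+BMP4 after RA raised 3 of the 7 tested genes and lowered 3, again within 1 read kind. DACH1 rose 3.36-fold over RA day 9 (log2 fold change 1.75, SE 0.17, adjusted p = 3.1e-08), and SIX4 rose by 0.79 (SE 0.09, adjusted p = 1e-07). PAX9 fell by 4.14 (SE 0.45, adjusted p = 3.4e-08), SIX2 by 2.99 (SE 0.59, adjusted p = 0.00019) and EYA2 by 1.35 (SE 0.24, adjusted p = 0.00013). PAX1 rose by 1.26 (SE 0.37, adjusted p = 0.0086), and without RA day 9 replicate 3 it missed the threshold (0.92, adjusted p = 0.055). EYA1 did not pass (log2 fold change -0.11, SE 0.29, adjusted p = 0.77), and its groups overlapped. In this comparison 64.4% of all tested genes were called, 32.1% higher and 32.3% lower.

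Within RA day 9, replicate 1 was the highest and replicate 3 the lowest of the 3 for PAX1, PAX9, SIX2, EYA1 and EYA2. The same held for the summed level of the 17 pharyngeal endoderm genes, at 360.1, 232 and 125 CPM in replicates 1, 2 and 3, and for the placode markers, at 58.9, 39.5 and 28.0 CPM. Most of the placode sum was GATA3, which averaged 39.7 CPM at RA day 9. Only 1 of the 8 placode markers averaged over 1 CPM there. MYH6, a cardiac myosin, averaged 723 ± 171 CPM at RA day 9 (SD, n = 3) and at most 1.52 CPM in any other group. The 6 splanchnic mesoderm and heart markers summed to 594 to 946 CPM in RA day 9 libraries and to at most 30.2 CPM in any other library, and most of the RA day 9 sum was MYH6. HAND2, a heart regulator, averaged 7.18 CPM at RA day 9 and 0.463 CPM at untreated day 9, TNNT2, a cardiac troponin, 26.4 and 19.4 CPM, FOXF1, of splanchnic mesoderm, 0.144 and 0.170 CPM, and TCF21, of splanchnic mesoderm, 0.144 and 5.70 CPM (adjusted p = 3.2e-06, lower at RA day 9). The part of MYH6-expressing cells in the member levels was not tested.

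CHIR+BMP4 without RA, set against untreated day 9, raised 3 of the 7 tested genes and lowered 0 in edgeR's test. Over all tested genes 42.8% were called, 21.0% higher and 21.8% lower. PAX1 averaged 362 ± 28.3 CPM after CHIR+BMP4 and 15.2 ± 3.08 CPM at untreated day 9 (SD, n = 3 each), and was 23.7-fold higher (log2 fold change 4.57, SE 0.21, adjusted p = 2.3e-10). DACH1 rose 4.78-fold (log2 fold change 2.26, SE 0.21, adjusted p = 7.8e-08), and EYA2 1.74-fold (0.80, SE 0.19, adjusted p = 0.0035). EYA1 (0.50, SE 0.20, adjusted p = 0.064), PAX9 (-0.78, SE 0.35, adjusted p = 0.078), SIX2 (-0.30, SE 0.39, adjusted p = 0.57) and SIX4 (-0.08, SE 0.09, adjusted p = 0.52) did not pass. EYA1, whose groups did not overlap, passed when the 2 groups were fitted alone (0.49, adjusted p = 0.0063). PAX9 passed without CHIR+BMP4 replicate 1 (-1.05, adjusted p = 0.043), and stood at 0.20 (adjusted p = 0.95) with the read-kind covariate. With the read-kind covariate PAX1 (5.80, adjusted p = 5.2e-06) and DACH1 (3.40, adjusted p = 0.049) stayed called and EYA2 did not (0.38, adjusted p = 0.87), where 2.12% of all tested genes were called. Of the 13 tested pharyngeal endoderm genes 3 rose and 5 fell. FOXI3, a forkhead gene of pharyngeal pouches and placodes, rose by 2.00 (SE 0.16, adjusted p = 1.3e-08), and FOXE1, a thyroid forkhead gene, fell by 4.04 (SE 0.51, adjusted p = 2.9e-05). With the covariate 1 of the 13 rose and 0 fell in edgeR's test, FOXI3 standing at 2.77 (adjusted p = 0.009) and FOXE1 at -4.49 (adjusted p = 0.54). The 8 paraxial and head mesoderm markers summed to 129 to 166 CPM after CHIR+BMP4 and 461 to 508 CPM at untreated day 9, and their part in the member changes was not tested.

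RA at day 6, directly after the 24 h treatment, lowered 5 of the 7 tested genes and raised 1, where 48.7% of all tested genes were called, 23.4% lower and 25.3% higher. PAX1 averaged 0.223 ± 0.213 CPM at RA day 6 and 118 ± 28.5 CPM at untreated day 6 (SD, n = 3 each), a log2 fold change of -9.03 (SE 0.41, adjusted p = 9.3e-11) that rests on 6 counts in the RA libraries. PAX9 fell by 6.32 (SE 0.46, adjusted p = 9.5e-11), with 5 counts in the RA libraries. SIX2 had 3 counts at RA day 6 and 61 at untreated day 6, a ratio of 0.03999 (95% interval 0.00803 to 0.123, counting error only), and passed the test (adjusted p = 0.00019). EYA1 fell by 1.67 (SE 0.22, adjusted p = 1.9e-05), DACH1 rose by 1.09 (SE 0.22, adjusted p = 0.00053) and SIX4 fell by 0.25 (SE 0.09, adjusted p = 0.031). EYA2 did not pass (-0.14, SE 0.21, adjusted p = 0.61).

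With the read-kind covariate, PAX1 (-8.11, adjusted p = 1.9e-07) and PAX9 (-5.59, adjusted p = 7.5e-05) stayed called at day 6. SIX2 (-4.59, adjusted p = 0.069), EYA1 (-1.50, adjusted p = 0.1) and DACH1 (1.91, adjusted p = 0.058) missed the threshold in that fit, and SIX4 stood at 0.051 (adjusted p = 0.93). Without untreated day 6 replicates 1 and 3, DACH1 missed it too (0.83, adjusted p = 0.085). The SIX4 call was lost without untreated day 6 replicate 2 (-0.18, adjusted p = 0.14), RA day 6 replicate 1 (-0.25, adjusted p = 0.062) or RA day 6 replicate 2 (-0.21, adjusted p = 0.12). Of the 13 tested pharyngeal endoderm genes 8 fell and 3 rose. NKX2-3, a homeobox gene of the pharynx, fell by 6.81 (SE 0.57, adjusted p = 1.8e-08). Of the 3 tested other PAX genes, all 3 were lower, among them PAX6 (-6.82, SE 0.67, adjusted p = 2.7e-08). The foregut endoderm markers went the other way, with 7 of 8 higher and 0 lower in edgeR's test. With the covariate 7 of the 13 pharyngeal endoderm genes were lower and 0 higher, and 4 of the 8 foregut endoderm markers were higher. NKX2-3 (-7.56, adjusted p = 3.3e-05) and PAX6 (-6.30, adjusted p = 0.0013) stayed called.

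RA at day 9, 3 days after its removal, lowered 4 of the 7 tested genes and raised 2, where 65.1% of all tested genes were called, 32.5% in each direction. EYA1 fell by 2.36 (SE 0.25, adjusted p = 1.1e-06), PAX1 by 2.40 (SE 0.34, adjusted p = 1.7e-05) and SIX4 by 0.98 (SE 0.09, adjusted p = 4.2e-09). DACH1 rose 4.30-fold (log2 fold change 2.11, SE 0.22, adjusted p = 1.2e-07). PAX9 rose by 0.97 (SE 0.32, adjusted p = 0.011), and missed the threshold without RA day 9 replicate 1 (0.60, adjusted p = 0.1) or untreated day 9 replicate 1 (0.84, adjusted p = 0.069). EYA2 fell by 0.53 (SE 0.21, adjusted p = 0.04) with groups that overlapped, and that call was lost without any 1 of 5 of the 6 libraries, the lowest absolute change being -0.24 (adjusted p = 0.15) without RA day 9 replicate 3. SIX2 did not pass (-0.35, SE 0.42, adjusted p = 0.48), but passed without RA day 9 replicate 1 (-1.16, adjusted p = 0.0095). With the read-kind covariate DACH1 alone stayed called (3.27, adjusted p = 0.021), and PAX1 stood at -1.15 (adjusted p = 0.21), EYA1 at -2.11 (adjusted p = 0.098), PAX9 at 1.96 (adjusted p = 0.14), SIX4 at -0.56 (adjusted p = 0.26) and EYA2 at -0.96 (adjusted p = 0.47). The pharyngeal endoderm list had 11 of 13 tested genes lower and 1 higher, and FOXI3 fell by 3.99 (SE 0.25, adjusted p = 2.3e-10). With the covariate 4 of the 13 were lower and 0 higher, and FOXI3 stayed called (-3.21, adjusted p = 0.0024).

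RA then CHIR+BMP4 against untreated day 9 lowered 5 of the 7 tested genes and raised 1, with 56.6% of all tested genes called, 28.6% lower and 28.0% higher. DACH1 was 14.5-fold higher (log2 fold change 3.86, SE 0.21, adjusted p = 1.4e-11). SIX2 (-3.34, SE 0.56, adjusted p = 4e-05), PAX9 (-3.17, SE 0.49, adjusted p = 8e-06), EYA1 (-2.47, SE 0.24, adjusted p = 6.2e-07), EYA2 (-1.88, SE 0.23, adjusted p = 3.8e-06) and PAX1 (-1.14, SE 0.26, adjusted p = 0.0019) fell, and SIX4 did not pass (-0.19, SE 0.09, adjusted p = 0.077) except without untreated day 9 replicate 1 (-0.24, adjusted p = 0.043). With the covariate DACH1 alone stayed called (4.99, adjusted p = 0.0015), EYA1 stood at -2.22 (adjusted p = 0.1), EYA2 at -2.29 (adjusted p = 0.09), PAX9 at -2.20 (adjusted p = 0.18), SIX2 at -3.47 (adjusted p = 0.26) and PAX1 at 0.081 (adjusted p = 0.96). This comparison shares its RA then CHIR+BMP4 and untreated libraries with those above.

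The median log2 fold change of the 7 tested members was -0.11 for CHIR+BMP4 after RA (0.02 for all genes), 0.50 for CHIR+BMP4 against untreated day 9 (0.00), -1.67 for RA at day 6 (0.00), -0.53 for RA at day 9 (-0.02) and -1.88 for RA then CHIR+BMP4 against untreated day 9 (0.00). The 13 tested pharyngeal endoderm genes had medians of -2.80 for RA before CHIR+BMP4, -2.51 for RA at day 6 and -1.74 for RA at day 9.

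**Figure D2:**
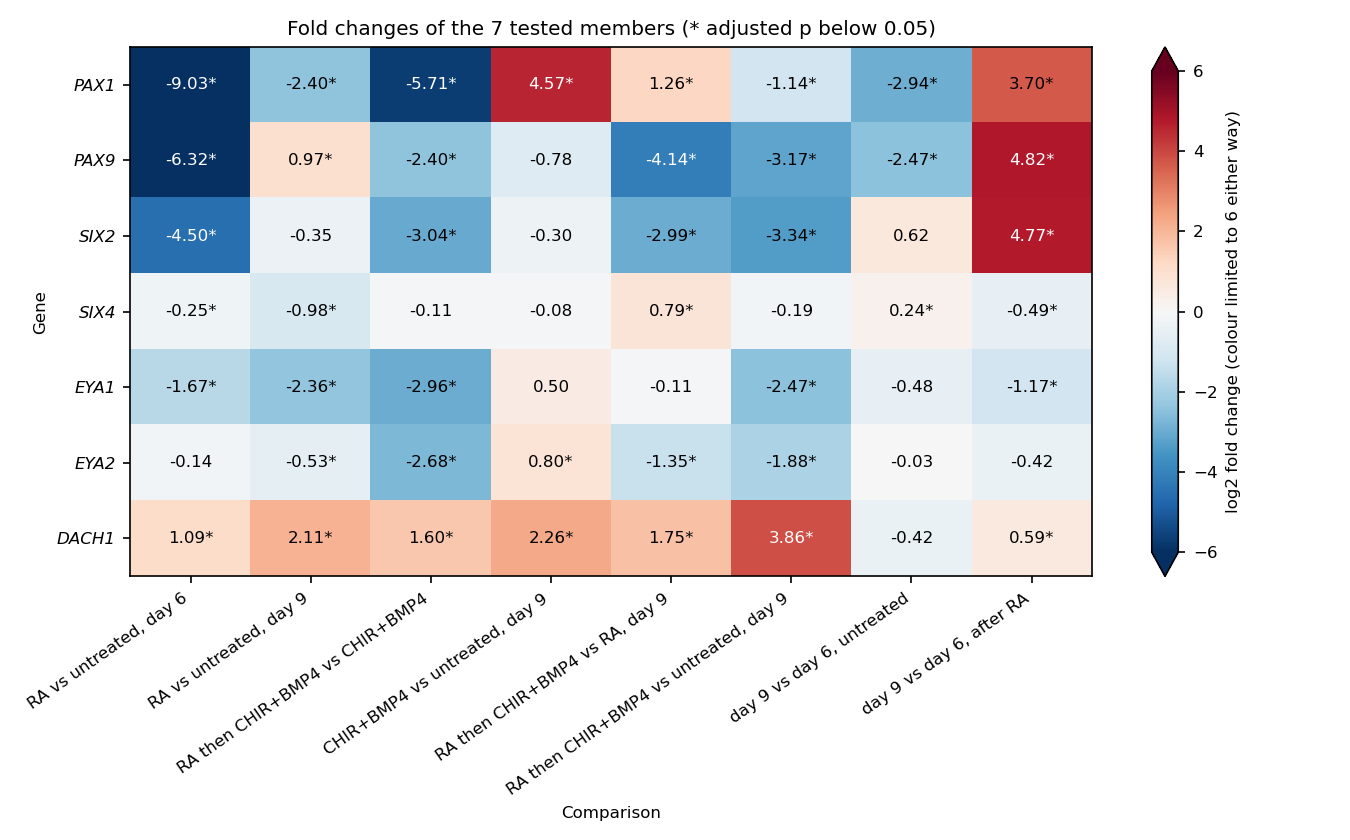
log2 fold changes of the 7 tested genes (rows) in 8 comparisons (columns), red higher and blue lower in the first-named group, with stars at an adjusted p below 0.05. PAX1 runs from -9.03 to 4.57, and DACH1 is above 0 in 7 of the 8 columns.

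Between day 6 and day 9 the PAX genes moved in opposite directions with and without RA. In untreated endoderm PAX1 fell at day 9 by 2.94 (SE 0.21, adjusted p = 3.7e-08) and PAX9 by 2.47 (SE 0.29, adjusted p = 3.6e-07), where 46.9% of all tested genes were called, 24.0% higher and 22.9% lower. SIX4 rose by 0.24 (SE 0.09, adjusted p = 0.031), a call that was lost without untreated day 6 replicate 1 (0.19, adjusted p = 0.13), untreated day 6 replicate 3 (0.22, adjusted p = 0.1) or untreated day 9 replicate 2 (0.17, adjusted p = 0.16), in DESeq2 (0.23, adjusted p = 0.065) and with the read-kind covariate (0.13, adjusted p = 0.45). SIX2, EYA1, EYA2 and DACH1 did not pass there, with log2 fold changes of 0.62, -0.48, -0.03 and -0.42 in that order. DACH1 passed without untreated day 9 replicate 2 (-0.73, adjusted p = 0.014).

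After RA, within 1 read kind, 4 of the 7 tested genes were higher at day 9 than at day 6 and 2 were lower, where 58.8% of all tested genes were called, 28.5% higher and 30.3% lower. PAX9 rose 28.2-fold (log2 fold change 4.82, SE 0.53, adjusted p = 4.5e-08) and PAX1 13.0-fold (3.70, SE 0.82, adjusted p = 0.0012). Both folds rest on few reads at RA day 6, where PAX9 had 5 counts in all and PAX1 had 6. SIX2 had 76 counts at RA day 9 and 3 at RA day 6, a ratio of 28.96 (95% interval 9.54 to 144, counting error only, adjusted p = 4.2e-05). DACH1 rose by 0.59 (SE 0.19, adjusted p = 0.011). EYA1 fell by 1.17 (SE 0.27, adjusted p = 0.0017), SIX4 by 0.49 (SE 0.10, adjusted p = 0.00012), and EYA2 did not pass (-0.42, SE 0.21, adjusted p = 0.1) except without RA day 9 replicate 1 (-0.72, adjusted p = 0.0017). PAX1 at RA day 9 (3.16 ± 2.16 CPM) was nonetheless below untreated day 9 (15.2 ± 3.08 CPM, SD, n = 3 each), whereas PAX9 was above it (5.44 ± 2.43 CPM against 2.77 ± 0.246 CPM).

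The response to RA was then compared between settings with interaction terms. Between day 9 with and without CHIR+BMP4 it differed for 5 of the 7 tested genes, where 53.4% of all tested genes were called, 25.5% higher and 27.9% lower. PAX1, PAX9, SIX2 and EYA2 had the more negative response with CHIR+BMP4 and SIX4 the less negative one, while EYA1 (-0.60, SE 0.36, adjusted p = 0.17) and DACH1 (-0.51, SE 0.28, adjusted p = 0.13) did not pass. EYA1 passed without RA day 9 replicate 3 (-0.96, adjusted p = 0.0024) and DACH1 without untreated day 9 replicate 2 (-0.81, adjusted p = 0.0065). EYA2 had a response of -2.68 with CHIR+BMP4 and -0.53 without it, a difference of -2.15 (SE 0.31, adjusted p = 2.5e-05). PAX9 had responses of -2.40 and 0.97 in these settings, a difference of -3.36 (SE 0.61, adjusted p = 6.7e-05). The term uses the untreated day 9 libraries, and with the read-kind covariate PAX1 (-4.57, adjusted p = 0.00024) and PAX9 (-4.37, adjusted p = 0.0069) stayed called, whereas SIX2 (-2.57, adjusted p = 0.44), SIX4 (0.45, adjusted p = 0.42) and EYA2 (-1.72, adjusted p = 0.2) did not.

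Between day 9 and day 6, both without CHIR+BMP4, the RA response differed for 5 of the 7 tested genes, where 50.9% of all tested genes were called, 24.9% higher and 26.0% lower. It was higher at day 9 for PAX9 (a difference of 7.29, SE 0.59, adjusted p = 8.8e-10), PAX1 (6.64, SE 0.78, adjusted p = 5.1e-06), SIX2 (4.15, SE 0.9998, adjusted p = 0.0018) and DACH1 (1.01, SE 0.32, adjusted p = 0.014), and lower for SIX4 (-0.73, SE 0.13, adjusted p = 6.8e-05). All 5 stayed called with the read-kind covariate, where 42.10% of all tested genes were called in this term. The PAX9, PAX1 and SIX2 differences rest on 5, 6 and 3 counts at RA day 6. The DACH1 call was lost without untreated day 9 replicate 1 (0.45, adjusted p = 0.097). EYA1 (-1.07, adjusted p = 0.0051) and EYA2 (-0.69, adjusted p = 0.018) passed without RA day 9 replicate 1.

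**Figure D3:**
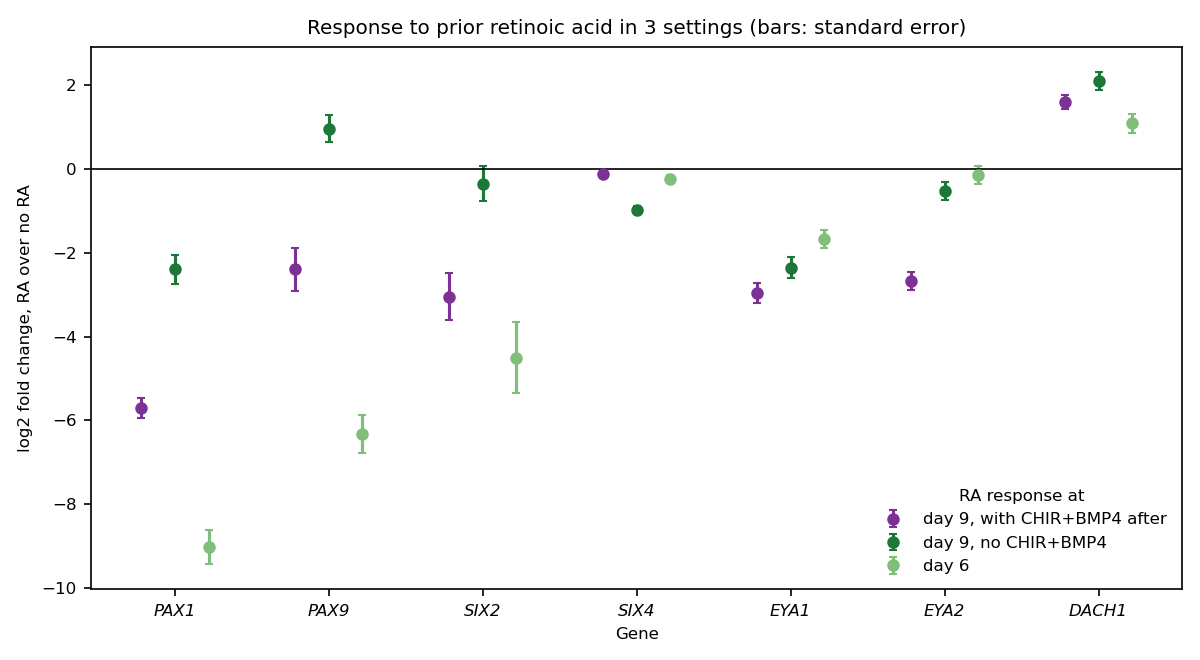
log2 fold change of RA over no RA for the 7 tested genes in 3 settings (day 9 with CHIR+BMP4 after RA, day 9 without, and day 6), with bars of 1 standard error. PAX9 stands at -2.40, 0.97 and -6.32 in these settings, and DACH1 is above 0 in all 3.

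Per transcript length, on the authors' TPM scale, the leading member changed with the group. DACH1 led after RA then CHIR+BMP4 (50.8 ± 3.09 TPM), with SIX4 next (30.4 ± 1.05 TPM). PAX1 led after CHIR+BMP4 (216 ± 16.0 TPM) and at untreated day 6 (66.8 ± 13.7 TPM). EYA2 led in the other 3 groups, at 32.8 ± 13.3 TPM at RA day 9, 37.0 ± 1.90 TPM at untreated day 9 and 44.3 ± 8.17 TPM at RA day 6 (SD, n = 3 each). EYA2 exceeded EYA1 in all 18 libraries. The EYA1 level divided by the EYA2 level was 0.0449 to 0.0604 at RA day 9 and 0.162 to 0.220 at untreated day 9, and 0.0699 to 0.119 at RA day 6 against 0.242 to 0.295 at untreated day 6, with no overlap on either day. After RA then CHIR+BMP4 it was 0.0896 to 0.177, which overlapped the 0.143 to 0.180 after CHIR+BMP4. The level of DACH1 divided by that of EYA1 was 29.3 to 37.2 after RA then CHIR+BMP4, 1.24 to 1.55 after CHIR+BMP4, 4.51 to 19.1 at RA day 9, 0.288 to 0.586 at untreated day 9, 2.34 to 2.74 at RA day 6 and 0.345 to 0.426 at untreated day 6. It was above 1 in all 12 treated libraries and below 1 in all 6 untreated libraries, a split at 1 that did not hold against EYA2. Treated and untreated libraries also differ in read kind, and at day 9 treatment and read kind cannot be told apart. DACH1 divided by EYA2 was 3.33 to 5.18 after RA then CHIR+BMP4, 0.181 to 0.223 after CHIR+BMP4, 0.272 to 0.859 at RA day 9, 0.0467 to 0.129 at untreated day 9, 0.192 to 0.302 at RA day 6 and 0.0835 to 0.126 at untreated day 6.

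**Figure D4:**
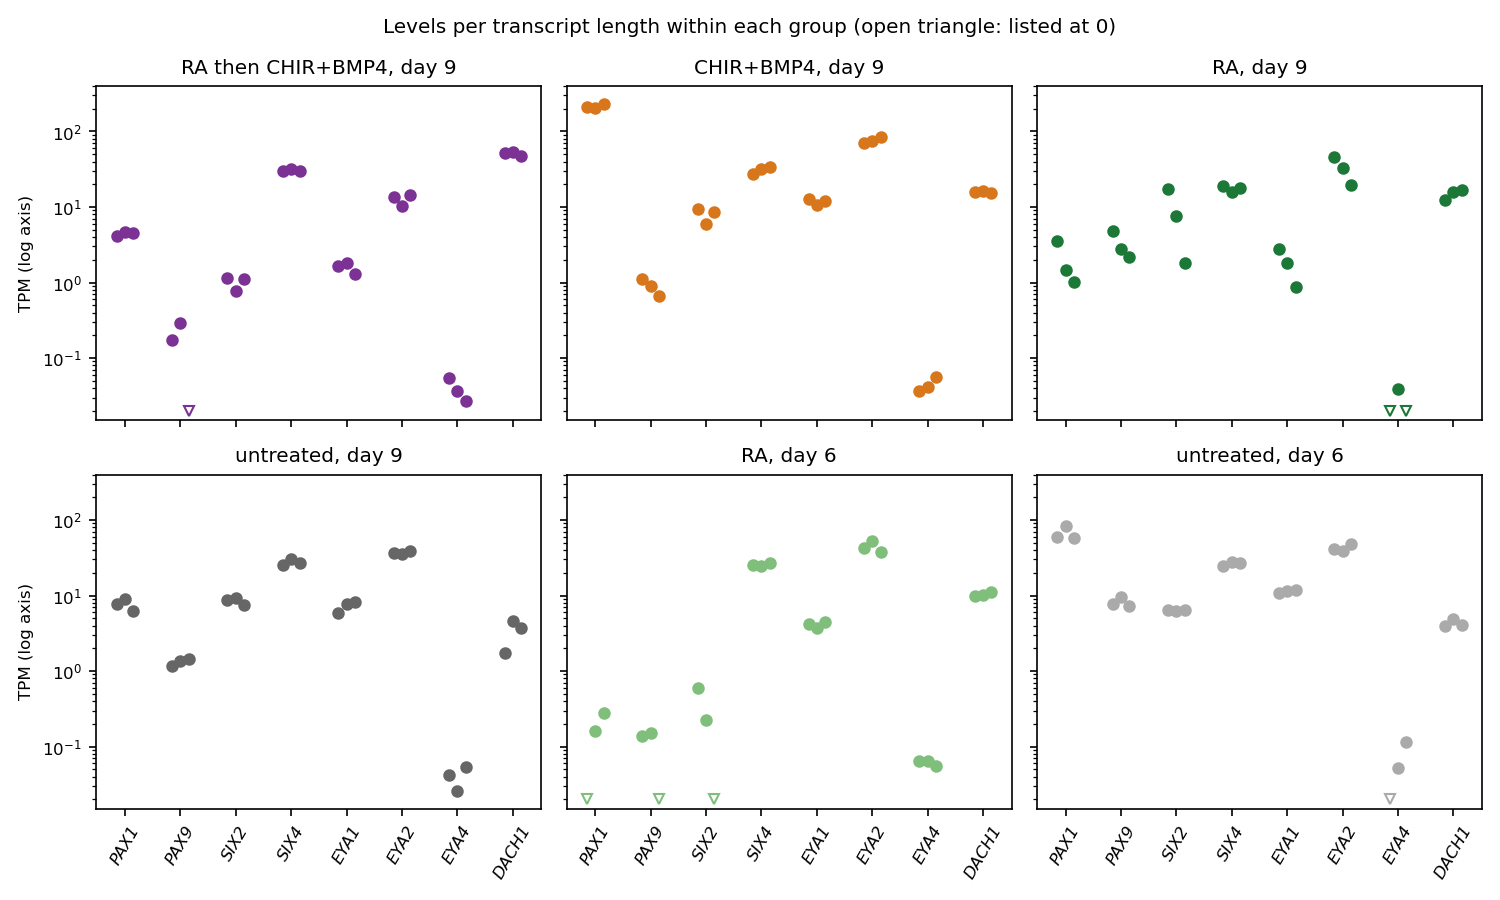
TPM (log axis) of the 8 genes in each group, 3 points per gene and open triangles where a library is listed at 0. DACH1 leads after RA then CHIR+BMP4 at 50.8 TPM, PAX1 after CHIR+BMP4 at 216 TPM, and EYA2 at RA day 9 at 32.8 TPM.

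Across the 18 libraries, which share groups, treatments and read kinds, the closest pair of members in log2 CPM was EYA1 and EYA2 (Pearson's r = 0.82), followed by PAX9 and SIX2 (r = 0.78). DACH1 had a negative r with each of the other 6 tested members, from -0.64 with EYA1 to -0.13 with SIX4. Among 13228 tested genes of at least 5 CPM in their highest group, the most alike were SEC14L2 for PAX1 (r = 0.97), PCDH8 for PAX9 (r = 0.94), XKR5 for SIX4 (r = 0.97), PAMR1 for EYA1 (r = 0.97), GSN for EYA2 (r = 0.95) and R3HDM1 for DACH1 (r = 0.97), each over 18 libraries. CITED2, a transcriptional coregulator, came next for PAX9 (r = 0.94). These values describe likeness over 6 groups only.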

How the data were processed

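The deposited table of raw counts per gene was made by the authors, and their TPM table gives the same 35025 genes per transcript length. The submitters' processing notes name STAR 2.7.9 and the GRCh38 build. RNA was extracted with a Nucleospin kit and libraries made with a stranded mRNA kit, per the labels' protocols. How reads were assigned to genes (tool, annotation, strand) is not given in the sources used here. The 36 genes without a symbol held 0.00102% of counts and were left out.

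Counts were tested with edgeR 4.0.16 in R 4.3.3 (robust quasi-likelihood, all 18 libraries, TMM scaling, filterByExpr with a minimum count of 10, Benjamini-Hochberg adjustment over 15531 genes). Alternatives used DESeq2 1.42.0, limma 3.58.1 on log2(TPM + 0.5), other scalings, no filter, a replicate block, a read-kind covariate, the compared groups alone, and single libraries left out. Terms after ± are SDs over the 3 libraries of a group. SE values were derived from the log2 fold change and the F statistic of its quasi-likelihood test. Intervals cover counting error at 95%. The edgeR test was also run on simulated counts with changes planted at RA day 6 only. Those counts held no read-kind difference, and the outcome is not given here.

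The members and gene lists were chosen with earlier results of these data known. From each list and comparison up to 3 called genes with the largest change and at least 5 CPM in 1 group were eligible to be named, and some of them are not reported here.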

Additional observations from a re-analysis of the deposited data

Results flagged for a closer look

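The response to RA differed between settings by the test of the difference itself for 10 combinations of gene and setting, each a difference of log2 fold changes from edgeR's quasi-likelihood test with Benjamini-Hochberg adjustment. With CHIR+BMP4 after RA, set against day 9 without it, the difference was -3.31 for PAX1 (SE 0.50, adjusted p = 5.5e-05), -3.36 for PAX9 (SE 0.61, adjusted p = 6.7e-05) and -2.69 for SIX2 (SE 0.72, adjusted p = 0.0038). It was -2.15 for EYA2 (SE 0.31, adjusted p = 2.5e-05) and 0.87 for SIX4 (SE 0.13, adjusted p = 5e-06). Over all tested genes 53.4% were called in this term. With the read-kind covariate SIX2 (adjusted p = 0.44), SIX4 (adjusted p = 0.42) and EYA2 (adjusted p = 0.2) lost the call.

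At day 9, set against day 6, the difference was 6.64 for PAX1 (SE 0.78, adjusted p = 5.1e-06), 7.29 for PAX9 (SE 0.59, adjusted p = 8.8e-10) and 4.15 for SIX2 (SE 0.9998, adjusted p = 0.0018). It was 1.01 for DACH1 (SE 0.32, adjusted p = 0.014) and -0.73 for SIX4 (SE 0.13, adjusted p = 6.8e-05). The PAX1, PAX9 and SIX2 differences rest on 6, 5 and 3 counts at RA day 6. Over all tested genes 50.9% were called in this term, and DACH1 lost the call without untreated day 9 replicate 1 (0.45, adjusted p = 0.097). Both sets use the RA day 9 and untreated day 9 libraries.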

How the results depend on the processing

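Of 1083 values recomputed under alternatives, 1011 kept their direction and their side of the threshold, 42 lost the call, 13 gained it and 17 changed sign. With the read-kind covariate the members called numbered 2 for RA at day 6, 1 for RA at day 9, 1 for RA then CHIR+BMP4 against untreated day 9 and 2 for the RA by CHIR+BMP4 interaction. Over all tested genes that fit called 12.15%, 11.98%, 7.32% and 10.86% in these comparisons, against 48.7%, 65.1%, 56.6% and 53.4% without it. The cause was not tested. Signs changed with that covariate for SIX4 after RA at day 6 (0.051), PAX9 (0.20) and SIX4 (0.33) after CHIR+BMP4, PAX1 (0.081) and SIX4 (0.22) after RA then CHIR+BMP4 against untreated, and EYA2 at untreated day 9 against day 6 (0.092). On the TPM scale they changed for EYA2 after RA at day 6 (0.036), SIX4 after CHIR+BMP4 (0.16) and SIX4 after RA then CHIR+BMP4 against untreated (0.14). The median over all tested genes on that scale was 0.19, 0.23 and 0.30 in these comparisons. In edgeR's fit it was 0.003, 0.003 and -0.004. EYA2 at untreated day 9 against day 6 stood at 0.059 without untreated day 6 replicates 1 and 3.

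With 1 library left out, log2 fold changes ran from -1.16 to 0.18 for SIX2 after RA at day 9, -0.13 to 0.0039 for SIX4 after CHIR+BMP4, -0.47 to 0.27 for EYA1 with CHIR+BMP4 after RA, -0.075 to 0.025 for EYA2 and -0.73 to 0.15 for DACH1 at untreated day 9 against day 6, and -0.81 to 0.057 for DACH1 in the RA by CHIR+BMP4 interaction. Same-numbered libraries deviated together with r of -0.111 to 0.228 over 45 pairs, 4 of them over 0.1, and 8 of 18 libraries were closest to their own number, so the numbers were not taken as pairs. The replicate block ended 1 member call, EYA2 after RA at day 9 (-0.53, adjusted p = 0.056). Low counts limit EYA4, and PAX1, PAX9 and SIX2 at RA day 6.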
